A study of Mus musculus with 10 samples.

Results

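The interleukin 1 (IL-1), tumour necrosis factor (TNF) and interleukin 6 (IL-6) systems were followed in sorted mouse retinal microglia through 10 genes, taken by symbol from the 55487 genes of the deposited count table. They are the ligands Il1a, Il1b, Il18, Tnf and Il6, the IL-1 receptor antagonist Il1rn, and the receptor chains Il1rap, Tnfrsf1a, Tnfrsf1b and Il6ra. Each symbol matched 1 gene, and all 10 passed the filter on low counts. The cells came from Cx3cr1GFP/+ mice, in which green fluorescent protein (GFP) replaces one copy of the fractalkine receptor gene, an allele carried by the controls as well. The groups sequenced were littermate controls (Control, n = 3), mice 4 weeks after streptozotocin (4wk STZ, n = 3) and mice 8 weeks after it (8wk STZ, n = 4). Streptozotocin kills the beta cells of the pancreas and leaves mice diabetic. Both retinas of each animal were combined, and living GFP-positive cells were sorted, so each library is 1 animal. The labels give no age for any group and a single control set, so that time since the drug and the age of the animals cannot be told apart.

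IL-1 alpha and IL-1 beta bind the same receptor, which signals only with the accessory chain encoded by Il1rap, and the antagonist Il1rn occupies that receptor without signalling. IL-1 beta and IL-18 are made as inactive precursors that inflammasome-activated caspase-1 cuts, so their transcript levels do not give the amount of active cytokine. TNF acts through TNFR1 (Tnfrsf1a), which can signal to inflammation or to cell death, and TNFR2 (Tnfrsf1b), which is mostly linked to survival. IL-6 binds IL-6 receptor alpha (Il6ra) and then gp130 (Il6st), which activates STAT3. Microglia, the resident macrophages of the retina, are a known source of TNF and IL-1 beta in the injured or diabetic retina.

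Library totals ran from 33266838 to 62903489 reads. All 10 listed microglial markers had reads in every group, and their summed level was 39171 to 43734 CPM (reads of a gene scaled to a fixed total per library) in Control, 34736 to 38630 CPM in 4wk STZ and 31218 to 33944 CPM in 8wk STZ. The sort gate also admits other myeloid cells that carry GFP. Of 10 neutrophil markers, 7 (S100a8, S100a9, Retnlg, Ngp, Camp, Ltf and Mmp8) stayed under 0.1 CPM in every library. The 8 monocyte markers summed to 12.2 to 25.5, 10.2 to 19.3 and 11.5 to 27.6 CPM in the 3 groups, and the 10 markers of border and perivascular macrophages to 161 to 444, 158 to 432 and 65.5 to 684 CPM. The 12 rod photoreceptor markers were present throughout and lower with diabetes, at 8798 to 9788, 4232 to 6113 and 2612 to 3674 CPM. Across all genes tested, Control 3 and 4wk STZ 3 were the least like the rest (mean r of log2 CPM with the other libraries 0.908 and 0.912, against 0.916 to 0.932), and values without both are given for the main results. In sorted bulk RNA, fewer cells of a type and less RNA per cell cannot be told apart.

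The promoters of Il1b and Tnf are shown because these genes had the largest fitted log2 fold changes of the 10 against Control, and that of Il6 because its window held the only NF-kappaB match among the 10 genes. Each is the 250 bases before the transcription start in RefSeq (GRCm38.p6), written 5′ to 3′ on the gene's strand: Il1b at chr2:129371140-129371389 (minus strand), Tnf at chr17:35202008-35202257 (minus strand) and Il6 at chr5:30012864-30013113 (plus strand). Capitals mark matches to TATAAA, to TGANTCA (the AP-1 motif), to TTGNGNAA (a form of the C/EBP motif) or to the NF-kappaB motif, searched on both strands. No match in these windows overlaps another.
Il1b: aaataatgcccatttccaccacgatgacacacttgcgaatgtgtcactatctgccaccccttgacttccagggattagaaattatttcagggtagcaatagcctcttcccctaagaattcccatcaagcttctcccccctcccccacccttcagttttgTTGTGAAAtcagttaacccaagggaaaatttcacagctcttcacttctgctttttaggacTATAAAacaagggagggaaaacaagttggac
Tnf: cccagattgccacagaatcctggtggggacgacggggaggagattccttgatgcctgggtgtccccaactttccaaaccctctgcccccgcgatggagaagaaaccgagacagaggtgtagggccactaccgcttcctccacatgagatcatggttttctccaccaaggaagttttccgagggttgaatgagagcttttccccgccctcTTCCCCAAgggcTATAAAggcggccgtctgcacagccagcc
Il6: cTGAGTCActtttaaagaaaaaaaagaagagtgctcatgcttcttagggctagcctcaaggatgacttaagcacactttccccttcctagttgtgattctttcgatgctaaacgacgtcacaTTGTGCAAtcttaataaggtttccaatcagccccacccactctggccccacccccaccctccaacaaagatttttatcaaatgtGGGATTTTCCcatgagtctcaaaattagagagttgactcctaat
TATAAA lay on the gene's strand in Il1b (31 to 26 bases before the start), Tnf (29 to 24) and also Il1a (32 to 27). Of 32851 RefSeq windows of the same length, 12.4% hold TATAAA on either strand. With its first base 25 to 35 before the start on the gene's strand, a range taken after these positions were seen, it occurred in 1.75% of them. Il6 had no TATAAA in the window. Its window was the only one of the 10 genes with a match to the NF-kappaB motif, 44 to 35 bases before the start, against 3.9% of all windows. It also held an AP-1 match (249 to 243) and a C/EBP match (128 to 121). Il1b and Tnf each held a C/EBP match, at 91 to 84 and at 41 to 34. AP-1 and C/EBP matches occur in 6.75% and 11.7% of all windows. The windows of Tnfrsf1a, Tnfrsf1b and Il1rap held none of the 4 motifs. The table had 12 windows for the 10 genes, 3 of them for Il1rn.

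Many cytokine transcripts carry AU-rich elements in the 3′ untranslated region, where the protein tristetraprolin (Zfp36) binds and speeds their decay. These elements are shown because Zfp36 is 1 of the 2 pathway genes that changed in these cells. Each line gives the 30 bases richest in ATTTA from the longest annotated 3′ untranslated region of the gene (GENCODE vM21, GRCm38), on the transcript's strand, with T for U and ATTTA in capitals. They lie at chr17:35199679-35199708 (Tnf), chr2:129364808-129364837 (Il1b), chr5:30019677-30019706 (Il6) and chr2:129300109-129300138 (Il1a).
Tnf: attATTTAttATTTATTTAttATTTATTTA
Il1b: caaccacttacctATTTATTTAtgtATTTA
Il6: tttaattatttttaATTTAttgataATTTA
Il1a: attttatctatgtATTTAtaaatatATTTA
The Tnf region of 764 bases held 8 copies of ATTTA and 5 of the nonamer TTATTTATT, counting overlaps, and the stretch shown holds 5 ATTTA. Of 21037 protein-coding genes with such a region, 7.65% hold the nonamer. Il1b had 4 ATTTA in 459 bases, Il6 had 10 in 1668 and Il1a had 3 in 1101, none with the nonamer. Per kilobase these are 10.5 ATTTA for Tnf, 8.71 for Il1b, 6 for Il6 and 2.72 for Il1a. Among the receptors, Tnfrsf1a had 0 in 490 bases, Tnfrsf1b 2 in 2324, Il6ra 4 in 7102 and Il1rap 8 in 2676. Il18 had 1 in 334 bases and Il1rn 0 in 1864.

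Compared per length, as CPM per kilobase of exonic sequence, the receptors for TNF led and the antagonist came last. Averaged over the 10 libraries, Tnfrsf1a stood at 95.6 CPM per kb and Tnfrsf1b at 75.9, above 97.2% and 96.6% of the 18957 genes tested. A second tier held Il1a (31.1), Il18 (29.9) and Il6ra (28.2), each above 91.0% or more of the genes. The other ligands were far lower. Tnf stood at 3.61 CPM per kb (above 61.6% of the genes), Il1b at 2.45 (54.5%) and Il6 at 1.58 (46.4%). Il1rap followed at 0.875 (36.5%) and Il1rn at 0.204 (14.9%). The place of Il1rap depends on its length, since all annotated exons are merged and its 11360 bases were the most of the 10 genes. In CPM not divided by length, its group means (8.54, 11.2 and 10.0) lay above those of the scarcer ligands. Those were 3.15, 6.69 and 7.43 for Tnf, 2.49, 5.04 and 6.05 for Il1b, and 3.56, 4.85 and 3.27 for Il6. Library ranges within tiers often overlapped, and below the TNF receptors the order by mean differed between groups. In Control the library ranges of Tnfrsf1a and Tnfrsf1b overlapped, as did those of Il6ra, Il1a and Il18 in turn, and those of Tnf, Il6, Il1b and Il1rap in turn. In 8wk STZ the ranges of Tnfrsf1a and Tnfrsf1b did not overlap (98.2 ± 12.3 against 74.4 ± 7.84 CPM per kb, SD, n = 4). The gap was narrow, from 82.9 down to 80.7 CPM per kb. Within every library, controls included, Tnfrsf1b lay below Tnfrsf1a. The ratio was 0.729 to 0.897 in Control, 0.731 to 0.898 in 4wk STZ and 0.684 to 0.865 in 8wk STZ. In 8wk STZ Il1b (3.17 ± 1.21) lay above Il6 (1.35 ± 0.271) without overlap. The retina's microglia thus carried far more TNF receptor than TNF transcript, and far more Il1a than Il1b, in each of the 3 groups.

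**Figure D1:**
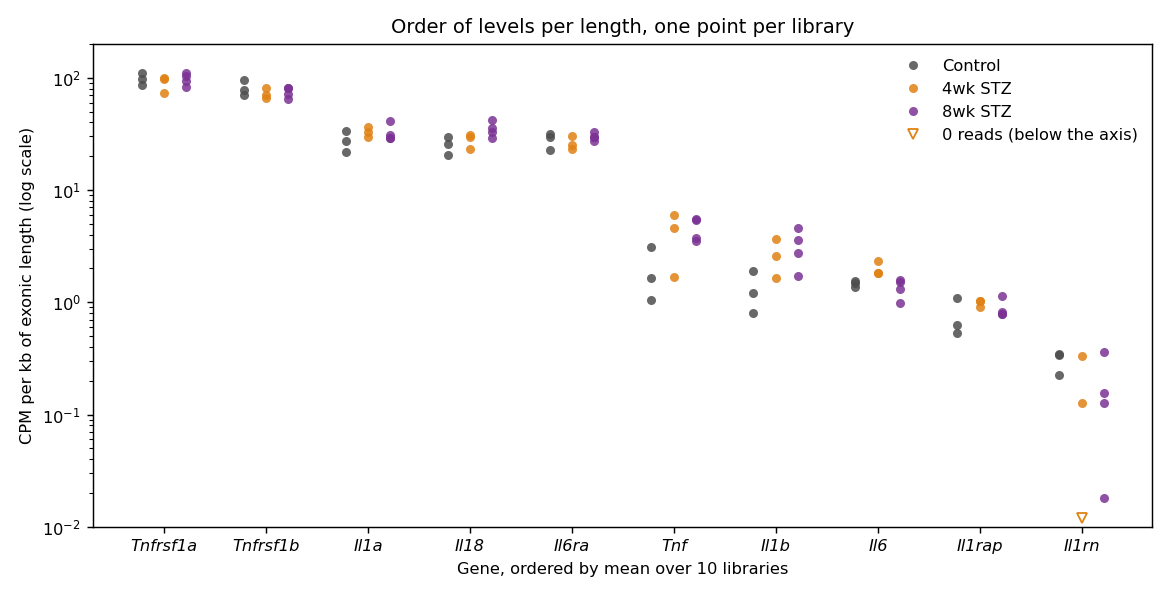
Level of each gene in CPM per kb of exonic length (log axis), with one point per library coloured by group and genes ordered by their mean over the 10 libraries. Tnfrsf1a and Tnfrsf1b lie highest, Il1a, Il18 and Il6ra form a second tier near 30 CPM per kb, and Il1rn lies lowest, with an open triangle at the axis for the 1 library without a read.

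Each STZ group was compared with Control, and the STZ groups with each other, to ask how these transcripts differ with diabetes and with its duration. None of the 10 genes passed in any comparison (edgeR's quasi-likelihood test, Benjamini-Hochberg adjusted p below 0.05 over all genes). Over all genes, 0% were called for 4wk STZ against Control, 2.37% for 8wk STZ against Control and 0.918% for 8wk STZ against 4wk STZ. At an unadjusted p below 0.05 the members numbered 0, 3 and 0, against 9.75%, 15.7% and 13.7% of all genes. The 3 were Il1b, Tnf and Il18, all higher in 8wk STZ than in Control. In each comparison 1 of the 10 genes had groups that did not overlap, against 12.3%, 16.9% and 15.4% of all genes. That gene was Il6 at 4 weeks (higher), Tnf at 8 weeks (higher) and Il6 between the times (lower at 8 weeks). The members' median log2 fold change was 0.20, 0.16 and 0.12, beside -0.0039, -0.0061 and -0.00045 over all genes. Those above 0 numbered 6, 7 and 7 of the 10, against 49.6%, 49.4% and 50.0% of all genes. The comparisons at 4 and 8 weeks share the Control libraries. All CPM values, above and below, are scaled by TMM factors. Log2 fold changes and their standard errors (SE) come from the fit.

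**Figure D2:**
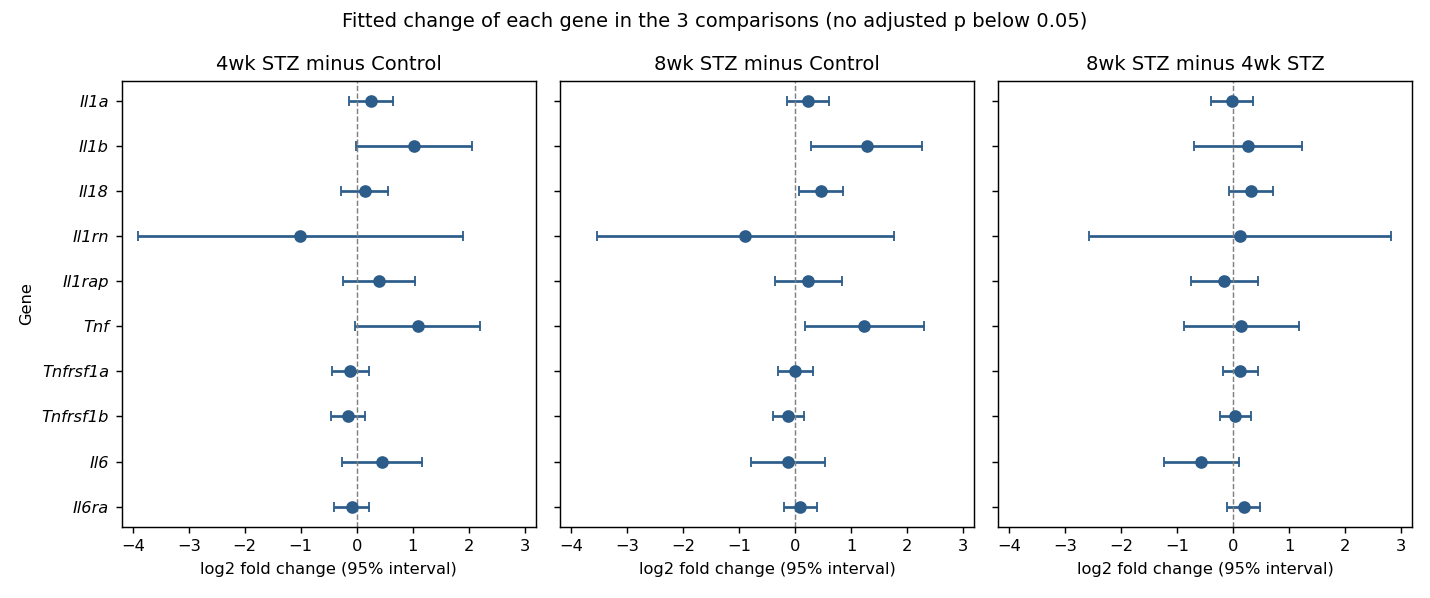
Fitted log2 fold change of each gene (points) with its 95% interval (whiskers) in the 3 comparisons. At 8 weeks against Control the intervals of Il1b, Tnf and Il18 lie above 0 before adjustment over all genes. Tnfrsf1a, Tnfrsf1b and Il6ra lie close to 0, and Il1rn has the widest interval (fold of 0.0857 to 3.40).

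Il1b (chr2:129364570-129371139, minus strand, GRCm38), the IL-1 beta precursor, was scarce in controls and higher in most diabetic animals. It stood at 2.29, 3.65 and 1.54 CPM in Control 1 to 3. In 4wk STZ it was at 7.04, 4.93 and 3.14 CPM, and in 8wk STZ at 8.73, 5.29, 3.28 and 6.88 CPM. The highest control, Control 2, lay above the lowest library of each diabetic group, so the groups overlapped. Against Control the fold was 2.02 at 4 weeks (95% interval 0.986 to 4.16, log2 fold change 1.02, SE 0.471, adjusted p = 0.520). At 8 weeks it was 2.43 (95% interval 1.22 to 4.84, log2 fold change 1.28, SE 0.451, adjusted p = 0.187). Without Control 3 and 4wk STZ 3 the 8-week log2 fold change was 1.03 (adjusted p = 0.322). The diabetic groups differed by a log2 fold change of 0.26 (adjusted p = 0.872). These values rest on 79 to 550 reads a library. In the authors' deposited table, Il1b has a log2 fold change of 1.28 and a false discovery rate of 0.0970 at 8 weeks. Il1bos, an antisense gene, shares 1.31% of the exonic sequence of Il1b, and reads of Il1b and Il1bos cannot be separated without strand.

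Tnf (chr17:35199381-35202007, minus strand), the TNF ligand, had a pattern near that of Il1b. Control held 5.06, 2.68 and 1.71 CPM. In 4wk STZ the libraries stood at 9.84, 7.50 and 2.74 CPM, and in 8wk STZ at 5.76, 9.08, 8.78 and 6.09 CPM. All 4 libraries at 8 weeks lay above all 3 controls, while 4wk STZ 3 stayed within the control range. The fold was 2.13 at 4 weeks (95% interval 0.983 to 4.61, adjusted p = 0.521). At 8 weeks it was 2.36 (95% interval 1.13 to 4.93, log2 fold change 1.24, SE 0.482, adjusted p = 0.238), and without Control 3 and 4wk STZ 3 the log2 fold change was 0.94 (adjusted p = 0.268). Between 8 and 4 weeks the log2 fold change was 0.15 (adjusted p = 0.944). Each library held 88 to 474 reads of Tnf. The authors' deposited table gives Tnf a false discovery rate of 0.111 at 8 weeks.

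A list of immediate early genes and genes known to respond to enzymatic dissociation also had higher summed levels in the diabetic groups, with overlap. It includes the chemokines Ccl3 and Ccl4 and the heat shock genes Hspa1a and Hspa1b. The 16 listed genes summed to 1524, 982 and 1155 CPM in Control, to 1675, 1431 and 1217 CPM in 4wk STZ, and to 2027, 1444, 1721 and 1645 CPM in 8wk STZ. At 8 weeks 1 of them was called higher than Control, the chemokine Ccl3 (51.0 ± 6.97 CPM in Control, n = 3, and 91.4 ± 6.66 in 8wk STZ, n = 4, adjusted p = 0.011), and 8 were higher at an unadjusted p below 0.05. Over all genes 2.37% were called and 15.7% had such a p, in either direction. Their part in the Il1b and Tnf values was not tested. Neutrophils, another source of IL-1 beta, had 7 of 10 markers under 0.1 CPM. The sum of that list (249 to 450 CPM) came almost wholly from Csf3r, at 376 ± 63.7, 305 ± 57.1 and 342 ± 20.0 CPM. The border and perivascular macrophage markers summed to 444, 161 and 295 CPM in Control and to 216, 432 and 158 CPM in 4wk STZ. In 8wk STZ they summed to 520, 237, 65.5 and 684 CPM. The part of either cell type in the Il1b values was not tested.

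**Figure D3:**
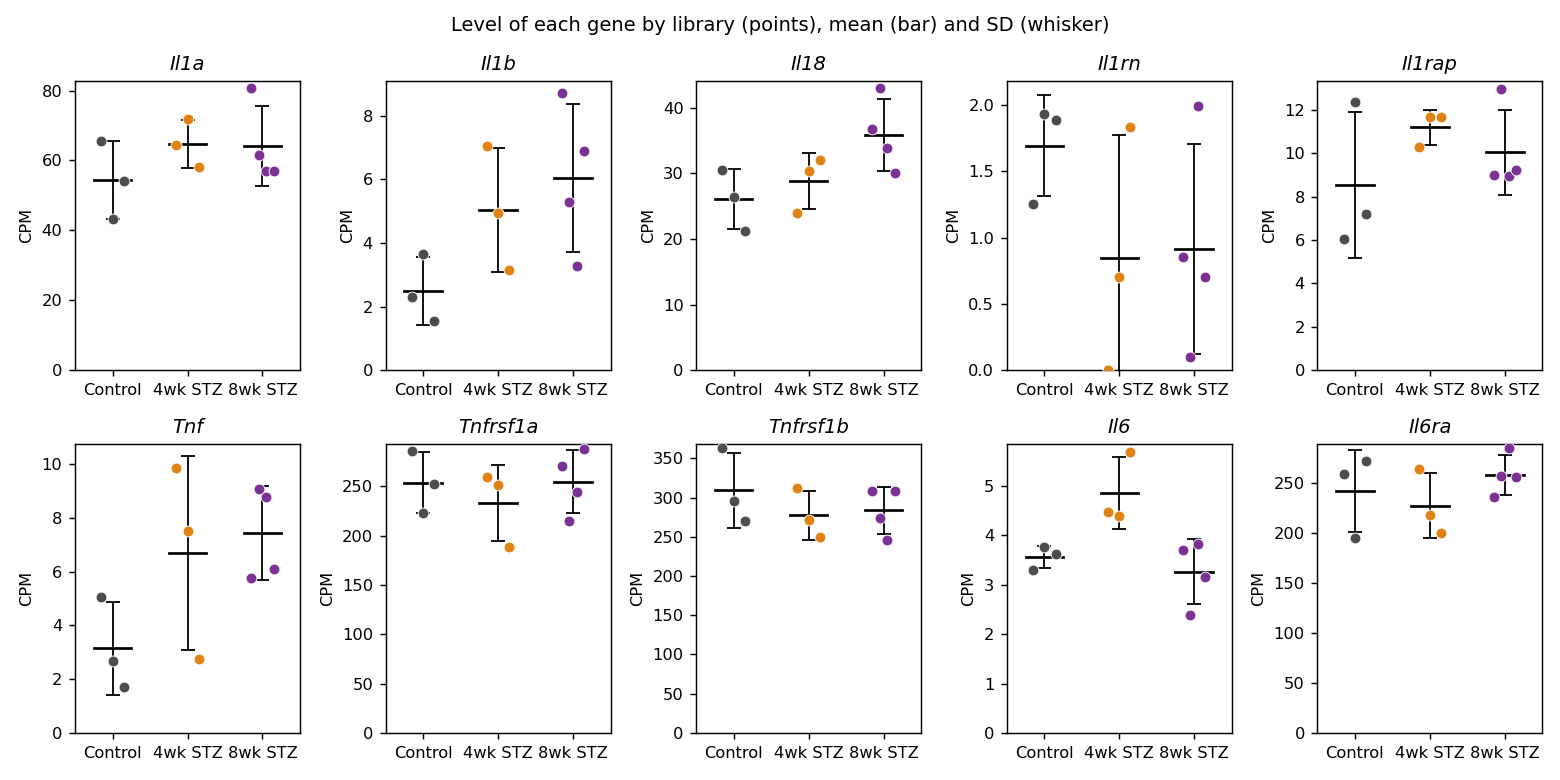
CPM of each gene by library (points) in Control (n = 3), 4wk STZ (n = 3) and 8wk STZ (n = 4), with the mean (bar) and SD (whiskers, cut at 0), each panel on its own axis from 0. For Tnf the 4 libraries at 8 weeks (5.76 to 9.08 CPM) lie above the 3 controls (1.71 to 5.06 CPM), whereas Tnfrsf1a, Tnfrsf1b and Il6ra overlap across all groups.

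Il18 (chr9:50554827-50581840, plus strand), another precursor cut by caspase-1, stood at 30.5, 26.4 and 21.3 CPM in Control. It was at 24.0, 30.3 and 32.0 CPM in 4wk STZ and at 36.8, 43.0, 33.8 and 30.001 CPM in 8wk STZ. At 8 weeks 3 of the 4 libraries lay above every control, and the groups overlapped through 8wk STZ 4 and Control 1. The fold at 8 weeks was 1.38 (95% interval 1.047 to 1.81, log2 fold change 0.46, SE 0.180, adjusted p = 0.237). Without Control 3 and 4wk STZ 3 the log2 fold change was 0.34 (adjusted p = 0.449). At 4 weeks it was 0.14 (adjusted p = 0.893).

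Il1a (chr2:129299610-129309972, minus strand) encodes IL-1 alpha, which is active without caspase-1. Its levels were 65.7, 43.4 and 54.0 CPM in Control, 64.5, 71.8 and 58.1 CPM in 4wk STZ, and 80.8, 61.5, 57.0 and 56.9 CPM in 8wk STZ. The groups overlapped, and the highest value of all belonged to 8wk STZ 1. The log2 fold change from Control was 0.25 at 4 weeks (SE 0.182, adjusted p = 0.728) and 0.24 at 8 weeks (SE 0.171, adjusted p = 0.597). The 95% intervals of the fold at 8 weeks, 0.908 to 1.53 for Il1a and 1.22 to 4.84 for Il1b, overlap. The difference between the 2 genes was not tested. Gm14023, on the opposite strand, shares 11.2% of the exonic sequence of Il1a, so part of these reads could belong to it.

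Il1rn (chr2:24336853-24351494, plus strand), the natural antagonist of both IL-1 ligands, was the lowest of the 10 genes per length and varied widely among diabetic animals. Control held 1.25, 1.94 and 1.89 CPM, from 58 to 97 reads a library. In 4wk STZ the libraries stood at 0, 0.705 and 1.83 CPM, and in 8wk STZ at 0.857, 0.1002, 1.99 and 0.705 CPM. The library at 0, 4wk STZ 1, allows up to 3 reads or 0.0623 CPM, and 8wk STZ 2 had 5 reads. Both diabetic groups thus spread from almost nothing to the control level. The log2 fold change was -1.01 at 4 weeks (SE 1.31, adjusted p = 0.891) and -0.89 at 8 weeks (SE 1.20, adjusted p = 0.823). The 95% intervals of the fold, 0.0668 to 3.71 and 0.0857 to 3.40, span a large fall and a large rise, neither detectable with this spread and group size.

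Il1rap (chr16:26581704-26730117, plus strand), the chain that completes the IL-1, IL-33 and IL-36 receptors, was low in all libraries. Levels were 6.06, 12.4 and 7.20 CPM in Control, 10.3, 11.7 and 11.7 CPM in 4wk STZ, and 9.01, 12.9, 8.95 and 9.25 CPM in 8wk STZ. Control 2 was as high as the highest diabetic libraries. The log2 fold change was 0.39 at 4 weeks (SE 0.290, adjusted p = 0.740) and 0.23 at 8 weeks (SE 0.272, adjusted p = 0.789). The antisense gene Gm20319 shares 4.86% of its exonic sequence.

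The receptors for TNF were abundant and close to level across the groups. Tnfrsf1a (chr6:125349362-125362484, plus strand) stood at 285, 223 and 252 CPM in Control, 259, 252 and 189 CPM in 4wk STZ, and 270, 215, 244 and 288 CPM in 8wk STZ. Its fold at 8 weeks was 1.00 (95% interval 0.810 to 1.24, adjusted p = 0.995). Tnfrsf1b (chr4:145213463-145246870, minus strand) stood at 363, 295 and 271 CPM in Control, 312, 271 and 250.05 CPM in 4wk STZ, and 308, 274, 246 and 308 CPM in 8wk STZ. Its fold at 8 weeks was 0.917 (95% interval 0.757 to 1.11, adjusted p = 0.746). At 4 weeks the folds were 0.920 for Tnfrsf1a (0.732 to 1.16) and 0.897 for Tnfrsf1b (0.730 to 1.10). The intervals thus leave out a 1.5-fold change in either direction for both receptors at 8 weeks, before any adjustment for the number of genes. The lowest library for Tnfrsf1a was 4wk STZ 3. The ratio of Tnfrsf1b to Tnfrsf1a per length was 0.830 ± 0.0887 for Control, 0.815 ± 0.0838 for 4wk STZ and 0.762 ± 0.0779 for 8wk STZ (SD, n = 3, 3 and 4).

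Il6 (chr5:30013114-30019981, plus strand) had the smallest spread among controls relative to its mean of the 10 genes. Control held 3.31, 3.76 and 3.62 CPM. In 4wk STZ the libraries stood at 4.46, 4.39 and 5.69 CPM, all above the controls. In 8wk STZ they stood at 3.71, 2.39, 3.82 and 3.16 CPM, all below the 4-week libraries and overlapping Control. The log2 fold change was 0.44 at 4 weeks (SE 0.325, adjusted p = 0.738), -0.12 at 8 weeks (SE 0.303, adjusted p = 0.921) and -0.57 between the times (SE 0.302, adjusted p = 0.446). Between 119 and 234 reads a library carried these values. The highest value came from 4wk STZ 3, and the other 4-week libraries were also above every control. Il6ra (chr3:89864059-89913196, minus strand), the chain that binds IL-6, was far more abundant. It stood at 259, 195 and 272 CPM in Control, 263, 217 and 200.1 CPM in 4wk STZ, and 235, 256, 284 and 255 CPM in 8wk STZ. The groups overlapped, and the fold at 8 weeks was 1.07 (95% interval 0.869 to 1.31, adjusted p = 0.843). Gm42809 on the opposite strand shares 2.8% of its exonic sequence.

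The balance between partners was followed per length in each library. The ratio of Il1a to Il1b was 27.7, 11.5 and 33.9 for Control, 8.86, 14.1 and 17.9 for 4wk STZ, and 8.95, 11.2, 16.8 and 7.98 for 8wk STZ. Control 1 and 3 lay above every diabetic library, and Control 2 lay among them. The ratio of Tnf to Il1b was alike across groups, at 1.57 ± 0.890, 1.47 ± 0.402 and 1.73 ± 1.06 (SD, n = 3, 3 and 4). The ratio of Il6ra to Il6 was 19.2 ± 4.04 for Control, 13.5 ± 3.37 for 4wk STZ and 22.9 ± 5.26 for 8wk STZ. The 8wk STZ libraries (17.8 to 30.2) lay above those of 4wk STZ (9.88 to 16.6). No ratio was tested.

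Whether the inflammatory ligands vary together between animals of a group was asked with log2 CPM centred on group means, over 10 libraries and 3 pairs. For Il1b with Tnf, Pearson's r was 0.311 and Spearman's rho 0.176 (two-sided exact permutation within groups over 864 orders, p = 0.446 and 0.671, adjusted p = 0.644 and 0.903). Without the 2 libraries farthest from the median of Il1b, r was 0.675. For Il1a with Tnf, r was 0.296 and rho 0.236 (exact permutation, p = 0.448 and 0.576, adjusted p = 0.644 and 0.903), and r was 0.292 without the 2 farthest. For Il1a with Il1b, r was 0.187 and rho 0.0545 (exact permutation, p = 0.644 and 0.903, adjusted p the same), and r was -0.191 without the 2 farthest. None of the 3 relations passed.

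With group means left in, as a description over the same 10 libraries, the members most alike in log2 CPM were Tnfrsf1a with Tnfrsf1b (r = 0.683) and Il1b with Tnf (r = 0.663). The most opposed were Tnfrsf1a with Il1rap (r = -0.670), Il1rn with Tnf (r = -0.647) and Il1b with Il1rn (r = -0.579). Among all other tested genes profiles near that of Il1b included Shc1 (r = 0.941) and Grap (0.929). Nearest to Tnf were Golgb1 (0.939), Kmt5b (0.937) and Ift80 (0.924), nearest to Il1a Cir1 (0.912), and nearest to Il18 Lrrfip2 (0.929). Il6 was followed most closely by Esd (0.908), Il6ra by Slc35e1 (0.926), Tnfrsf1a by Sugp2 (0.948), Tnfrsf1b by Ruvbl2 (0.921), Il1rap by Wdr3 (0.913) and Il1rn by Wsb2 (0.966). These values come from a search of the tested genes over only 10 libraries, and they carry no test.

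Around the 10 genes, 9 lists named 120 genes of the same pathways, of which 102 were tested. None was called at 4 weeks or between the times. At 8 weeks against Control 2 were called higher and none lower, 1.96% of the 102 beside 2.37% of all genes. The pathway genes' median log2 fold change was -0.0074 at 4 weeks, 0.15 at 8 weeks and 0.19 between the times. The 2 genes were Zfp36 and Cflar.

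Zfp36 (chr7:28376784-28380253, minus strand), the tristetraprolin gene, more than doubled at 8 weeks. It stood at 397, 265 and 285 CPM in Control, 489, 367 and 286 CPM in 4wk STZ, and 727, 573, 711 and 657 CPM in 8wk STZ. Every library at 8 weeks lay above every other. The log2 fold change was 1.08 (SE 0.191, adjusted p = 0.017), and it lost the call without Control 2, Control 3 or 8wk STZ 3 (adjusted p = 0.065, 0.067 and 0.051). Its protein binds the AU-rich elements shown above for Tnf. Zfp36 is itself known as an immediate early gene, though not part of the list described above, and its relation to that list was not tested. Zc3h12a, which encodes the RNase regnase-1 that cuts Il6 and other cytokine transcripts and is named here after its values were seen, stood at 4.28, 3.11 and 1.77 CPM in Control and at 9.85, 7.06, 6.45 and 10.1 CPM in 8wk STZ. Those groups did not overlap, which held for 16.9% of all genes. Zc3h12a missed the threshold (log2 fold change 1.45, SE 0.352, adjusted p = 0.061). Of the 10 genes for decay of cytokine transcripts, Zfp36 was the only one called, beside 2.37% of all genes at 8 weeks. The list as a whole did not rise. At 8 weeks against Control 4 of the 10 lay above 0, beside 49.4% of all genes, with a median log2 fold change of -0.065.

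Cflar (chr1:58711508-58758884, plus strand) encodes c-FLIP, which blocks caspase-8 at death receptors such as TNFR1. It stood at 82.3, 75.6 and 78.7 CPM in Control, 120.0, 105 and 83.5 CPM in 4wk STZ, and 117, 124, 123 and 118 CPM in 8wk STZ. All diabetic libraries lay above all controls. The log2 fold change at 8 weeks was 0.61 (SE 0.118, adjusted p = 0.024), with the call lost when any 1 library of Control or 8wk STZ was left out (adjusted p = 0.055 to 0.080). It was the only one called of the 20 genes of the TNF receptor complexes, beside 2.37% of all genes.

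**Figure D4:**
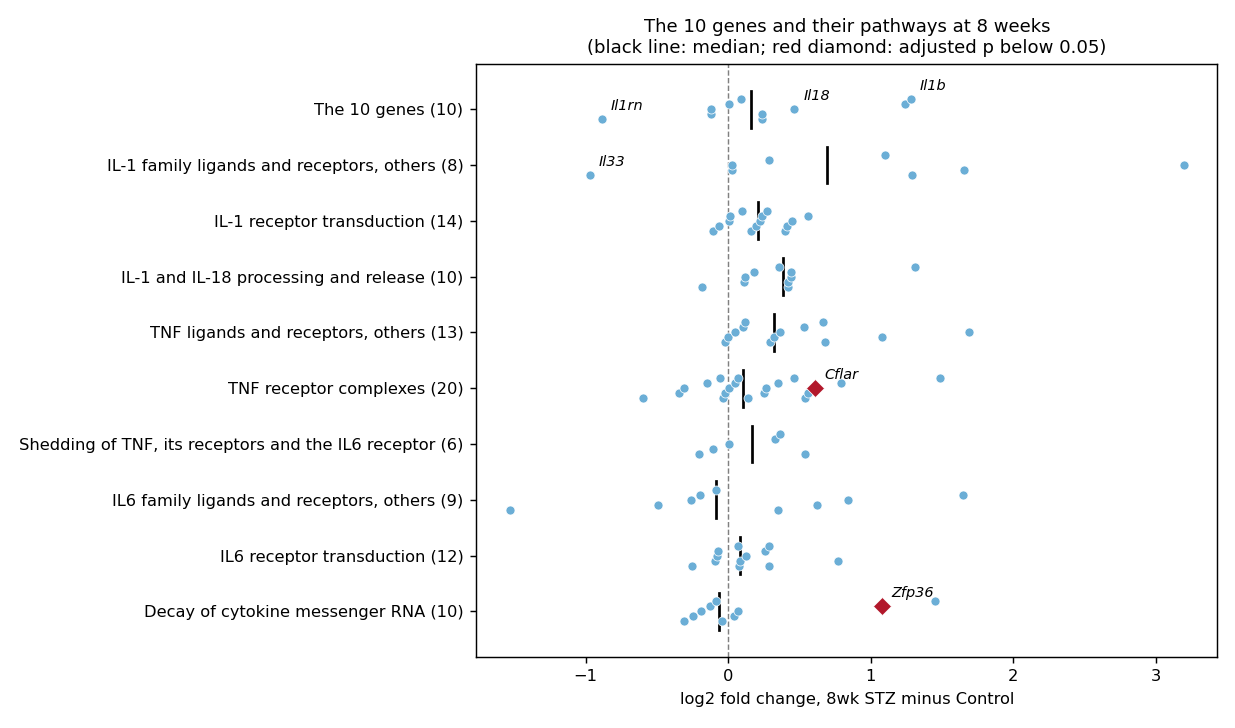
Log2 fold change at 8 weeks against Control for the 10 genes and for the tested genes of 9 pathway lists (number in brackets), with a black line at each median. Red diamonds are the 2 genes that passed, Zfp36 (1.08) and Cflar (0.61), and Il33 lies at -0.97 without passing.

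The remaining lists held no called gene in any of the 3 comparisons. Of the 10 genes for processing and release of IL-1 and IL-18, 9 lay above 0 at 8 weeks, beside 49.4% of all genes, and 4 had an unadjusted p below 0.05, beside 15.7% of all genes. Gsdmd, the pore through which IL-1 beta leaves the cell, stood at 69.1 ± 3.10 CPM in Control (n = 3) and 92.2 ± 9.72 in 8wk STZ (n = 4, log2 fold change 0.42, adjusted p = 0.068). Ninj1, which ruptures the membrane of dying cells, stood at 123 ± 13.3 and 109 ± 22.8 CPM (adjusted p = 0.664). Among 8 tested ligands and receptors of the wider IL-1 family, 7 lay above 0 at 8 weeks, beside 49.4% of all genes. Il1r1, the receptor of both IL-1 ligands, is named here after its values were seen. Its log2 fold change was 1.59 at 4 weeks (adjusted p = 0.420) and 1.29 at 8 weeks (adjusted p = 0.279). Il33, an alarmin of the nucleus, was the exception below 0. It stood at 18.4 ± 3.59, 21.1 ± 7.66 and 9.38 ± 1.57 CPM in the 3 groups in turn. Its log2 fold change was -0.97 against Control (adjusted p = 0.089) and -1.16 against 4wk STZ (adjusted p = 0.072). Il33 is known from Müller glia and astrocytes, whose 10 markers had 2 genes called lower and none called higher at 8 weeks against Control. The sum of that list ran the other way, from 2831 to 5800 CPM in Control to 5952 to 20128 CPM at 8 weeks, through Apoe (3391 ± 1336 and 11745 ± 6478 CPM, adjusted p = 0.075), which microglia also express. The part of such RNA in the Il33 level was not tested. Il1rl2, the IL-36 receptor, stood at 52.8 ± 11.1, 65.5 ± 2.73 and 53.7 ± 17.2 CPM.

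Of the 14 genes that carry the IL-1 receptor signal, 12 lay above 0 at 8 weeks, beside 49.4% of all genes. The kinase Irak2 stood at 147 ± 9.99 CPM in Control and 148 ± 4.53 in 8wk STZ, and the ubiquitin-conjugating enzyme Ube2n at 108 ± 15.4 and 109 ± 2.40 CPM. Among 13 other TNF family ligands and receptors, 4 lay above 0 at 4 weeks and 12 at 8 weeks, beside 49.6% and 49.4% of all genes. The lymphotoxin receptor Ltbr stood at 61.5 ± 7.01, 65.2 ± 10.8 and 75.4 ± 5.56 CPM in the 3 groups, and Tnfrsf13b, the TACI receptor for BAFF and APRIL, at 120 ± 15.9, 120 ± 9.12 and 130 ± 32.2 CPM. The sheddases that release TNF and its receptors from the surface did not pass. Adam17 stood at 217 ± 13.3, 228 ± 29.7 and 202 ± 4.71 CPM, and Adam10 at 476 ± 19.8, 502 ± 96.3 and 413 ± 57.6 CPM.

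On the IL-6 side, Il6st, the shared gp130 chain, stood at 348 ± 68.1, 300.2 ± 47.5 and 290 ± 37.2 CPM, with a log2 fold change of -0.26 at 8 weeks (adjusted p = 0.465). Il11ra1, the IL-11 receptor, stood at 51.4 ± 4.65, 43.5 ± 4.15 and 44.8 ± 8.15 CPM. Downstream of gp130, the kinase Jak1 stood at 297 ± 26.4, 347 ± 29.8 and 281 ± 20.3 CPM. The phosphatase Ptpn6, which damps cytokine receptor signals, stood at 610 ± 18.8, 643 ± 31.6 and 730 ± 29.4 CPM, with a log2 fold change of 0.26 at 8 weeks (SE 0.0709, adjusted p = 0.089). Of the 9 other IL-6 family ligands and receptors tested, 3 lay above 0 at 4 weeks and 4 at 8 weeks, beside 49.6% and 49.4% of all genes.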

How the data were processed

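Whole-number read counts per gene were deposited by the authors for 10 libraries, per the file headers, with no normalization. RNA was copied with the SMARTer Ultra Low kit, which does not mark strand, and sequenced in pairs on a NovaSeq, per the labels' protocols. Build GRCm38 and the tools STAR, Subread, featureCounts, Salmon, edgeR and limma appear in the submitters' processing notes. The tool behind the counts, its strand setting, its handling of multi-mapping reads and the annotation release: not given in the sources used here. A deposited table of the authors' own comparison holds log2 fold changes and p-values (as FDR), per the file headers, and was used only where named.

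Of 55774 entries, 287 repeated an identifier and were dropped, leaving 55487 genes. The number of transcripts per gene, 1 numeric column, was not used. Counts were scaled by TMM, filtered with filterByExpr (18957 genes kept) and modelled in R 4.3.3 by edgeR 4.0.16 with all 10 libraries in a single model of 3 group means, which leaves 7 residual degrees of freedom. The biological coefficient of variation was 0.564. Contrasts used the robust quasi-likelihood F-test with Benjamini-Hochberg adjustment, called at 0.05. Log2 CPM for correlations used a prior count of 2. Exonic lengths and positions came from GENCODE vM21. Intervals of folds are at 95% and rest on the spread between animals. The fit was tested on simulated data. Alternatives used DESeq2 1.42.0, limma 3.58.1, other scalings, filters and sample sets. Genes named beyond the 10 are the called genes of a pathway list or, with none called, its 2 highest per length. Genes among the 3 nearest profiles kept per gene are also named, though not all of these are reported here. Zc3h12a and Il1r1 were named after their values were seen. The members, lists and markers were chosen with earlier results of these data known. Same-numbered libraries of different groups did not deviate together and were not paired. Of the 120 pathway genes, 119 were found in the table.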

Additional observations from a re-analysis of the deposited data

Results flagged for a closer look

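Of the 10 genes, each in the 4 libraries of 8wk STZ, 1 had a library that stood far from the others. Il1rap, the accessory chain of the IL-1 receptor, was at 12.9 CPM in 8wk STZ 2 against 8.95 to 9.25 CPM in the other libraries of that group, a gap above Dixon's critical value for 4 samples. By chance about 1 in 20 such groups would pass. The cause was not tested.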

How the results depend on the processing

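None of the 10 genes was called in any of the 3 comparisons under any of the 20 alternatives run for each. The lowest adjusted p for 8wk STZ against Control came from DESeq2: 0.0605 for Il1b (range 0.0605 to 0.389), 0.0928 for Tnf (to 0.468) and 0.143 for Il18 (to 0.490). Counts of genes called over all, with edgeR's quasi-likelihood test first, were 0, 449 and 174. They were 244, 1166 and 759 with edgeR's likelihood ratio test, 299, 1436 and 995 with DESeq2, and 0, 596 and 199 with limma-voom. Without a filter they were 12, 506 and 277, with only the 2 groups compared 0, 463 and 100, and without Control 3 and 4wk STZ 3 together 0, 275 and 6. Leaving out 1 library gave 0 to 1, 206 to 462 and 13 to 118. Higher calls at 8 weeks against Control were 41% by TMM, 66% by library totals, which moved the median of all genes to 0.098 on the log2 scale, and 30.9% by upper-quartile scaling. Same-numbered libraries correlated in their deviations at -0.030 to 0.035 over 9 pairs, others at -0.039 to 0.039, and with the replicate number as a block 0, 44 and 0 genes were called. With the replicate block Cflar missed the threshold (0.62, adjusted p = 0.113) and Zfp36 kept its call.

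All reversals were of uncalled log2 fold changes near 0, or of wide ones. Without Control 3 and 4wk STZ 3 together, Il18 (-0.067), Tnfrsf1a (0.0059) and Il6ra (0.083) reversed at 4 weeks, and Tnf (-0.22), Tnfrsf1a (-0.0046) and Tnfrsf1b (-0.037) between the times. Tnfrsf1a at 8 weeks reversed with RLE size factors (-0.0054), upper-quartile scaling (-0.041), DESeq2 (-0.0054) and the replicate block (-0.059). Between the times Tnfrsf1b reversed with upper-quartile scaling (-0.029) and the replicate block (-0.0082), and Il1a with library totals (0.065), no filter (0.0072) and the replicate block (0.016). Leaving out 1 library at a time moved Tnfrsf1a over -0.21 to 0.0097 at 4 weeks, -0.079 to 0.097 at 8 weeks and -0.0040 to 0.21 between the times. It moved Tnfrsf1b over -0.21 to 0.0036 at 8 weeks and -0.036 to 0.13 between the times, and Il6ra over -0.043 to 0.18 at 8 weeks. Between the times it moved Il1a over -0.14 to 0.064, Il1rn over -0.60 to 1.37 and Tnf over -0.22 to 0.54. Pearson's r ran from -0.148 (without 8wk STZ 1) to 0.674 for Il1a with Il1b, from -0.018 (without Control 1) to 0.574 for Il1a with Tnf, and from -0.040 (without 4wk STZ 3) to 0.505 for Il1b with Tnf. The causes were not tested. Il1rn had the fewest reads of the 10 genes, 0 to 100 a library.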
